A study of Mus musculus with 22 samples.

Results

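Retinoic acid-treated mouse embryonic stem cells were examined for 10 genes of the trophectoderm, 6 transcription factor genes, Tead4, Cdx2, Gata3, Tfap2a, Tfap2c and Elf5, and the keratin genes Krt8, Krt18, Krt7 and Krt19. They were chosen by symbol, with no measured value in the rule, and are 10 of the 52535 symbols in each count table. Of the 10, 9 passed the filter on low counts and were tested among 16765 genes, and Elf5 did not pass. The cells were of the E14 embryonic stem cell line, kept undifferentiated with LIF and the MEK and GSK inhibitors PD0325901 and CHIR99021, from which these were withdrawn while 2 µM retinoic acid was added for 1 day. RNA was sequenced from 4 genotypes with 3 libraries each: unmodified cells (WT), E1-KO and E2-KO cells, named for the knockout of one or the other of a pair of HoxB enhancers, and D-KO cells, whose label is not spelled out and is read here as the loss of both elements. All 4 genotypes received retinoic acid. The number of clones behind each genotype is not given in the sources used here, and p-values measure the spread between these libraries, which may be technical in part.

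The trophectoderm is the outer epithelium of the blastocyst and gives rise to the trophoblast of the placenta. Tead4, the DNA-binding partner of the Hippo pathway effectors YAP and TAZ, acts upstream of Cdx2 and Gata3 there, while the AP-2 factors Tfap2a and Tfap2c and the ETS factor Elf5 sustain trophoblast gene expression. Keratin filaments are built from pairs of 1 type I and 1 type II chain. Krt8 and Krt7 are type II and Krt18 and Krt19 type I keratins, and Krt8 with Krt18 is the first keratin pair of the mouse embryo.

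In the GENCODE M21 annotation of GRCm38 (mm10), the build to which the authors aligned, Krt8 lies at chr15:101996698-102004482 on the minus strand and Krt18 at chr15:102028180-102032027 on the plus strand, 23.7 kb apart. Krt7 lies on the same chromosome at chr15:101411043-101430313. Krt19 lies in the other keratin cluster, at chr11:100140810-100148665 on the minus strand, 3.77 Mb from the HoxB genes. Tead4 is at chr6:128224288-128300823 on the minus strand and Tfap2c at chr2:172549593-172558622 on the plus strand. Cdx2 is at chr5:147300805-147307270, Gata3 at chr2:9857078-9890034 and Tfap2a at chr13:40715302-40738376, all on the minus strand, and Elf5 is at chr2:103411688-103450989 on the plus strand. Counts cover whole genes and do not separate exons.

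The RefSeq promoter table for GRCm38.p6 holds 7 of the 10 genes, as windows from 250 bases before to 50 bases after the transcription start. The windows were searched for the hexamer AGGTCA on either strand, the unit bound by retinoic acid receptors and other nuclear receptors, because the cells were treated with retinoic acid. It occurs in the windows of the 3 keratin genes in the table and in no window of Cdx2, Elf5, Gata3 or Tfap2a, and 16.3% of all 32851 promoter windows hold it. The keratin windows are shown in lower case with the hexamer in capitals, on the coding strand of each gene, at chr15:102004293-102004592 for Krt8, chr15:102027966-102028265 for Krt18 and chr15:101412153-101412452 for Krt7.
Krt8: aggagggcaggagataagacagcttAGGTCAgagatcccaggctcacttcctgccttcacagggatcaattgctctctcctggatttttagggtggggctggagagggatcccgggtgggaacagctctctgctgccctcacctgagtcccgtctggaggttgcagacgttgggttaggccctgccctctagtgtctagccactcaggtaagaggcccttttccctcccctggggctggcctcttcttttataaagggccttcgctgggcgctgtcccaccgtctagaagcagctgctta
Krt18: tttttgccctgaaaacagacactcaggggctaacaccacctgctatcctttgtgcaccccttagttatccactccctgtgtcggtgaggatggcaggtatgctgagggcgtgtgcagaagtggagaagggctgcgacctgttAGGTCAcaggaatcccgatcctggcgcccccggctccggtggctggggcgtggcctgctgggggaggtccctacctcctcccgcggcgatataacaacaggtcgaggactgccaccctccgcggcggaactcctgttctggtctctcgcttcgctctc
Krt7: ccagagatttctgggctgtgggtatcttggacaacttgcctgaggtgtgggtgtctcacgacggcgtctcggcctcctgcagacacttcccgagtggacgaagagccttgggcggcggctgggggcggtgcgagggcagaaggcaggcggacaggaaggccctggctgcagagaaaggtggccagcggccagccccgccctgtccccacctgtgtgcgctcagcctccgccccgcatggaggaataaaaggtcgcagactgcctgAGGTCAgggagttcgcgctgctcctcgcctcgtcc
The hexamer begins 225 bases before the start in Krt8, 108 bases before it in Krt18 and 15 bases after it in Krt7. The AP-2 motif GCCNNNGGC, present in 16.6% of all windows, occurs in those of Krt18, Krt7, Gata3 and Cdx2 and not in that of Krt8. Motifs of TEAD, ETS, CDX and GATA factors were searched as well, present in 14.7%, 8.86%, 11.9% and 11.2% of all windows. Among these genes the TEAD motif occurs only for Elf5 and the ETS motif for none. The CDX motif occurs for Elf5 and Tfap2a, and the GATA motif for Krt8. Such matches describe the letters of these windows, and binding was not measured.

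The libraries held 9101547 to 13007735 counted reads. The WT libraries stood apart from one another in their relation of expression to GC content: the Spearman correlation across genes of a gene's relative expression with its GC content was -0.64, 0.19 and -0.49 in WT replicates 1 to 3, 0.29 to 0.40 for E1-KO, 0.35 to 0.52 for E2-KO and -0.11 to -0.02 for D-KO. Mitochondrial genes held 1.94% to 5.88% of the counted reads in WT, 2.53% to 2.69% for D-KO, 1.63% to 1.81% for E2-KO and 1.36% to 1.48% for E1-KO. The knockout genotypes thus ranked in the reverse of their Tead4 and Tfap2c levels, and the part of this share in the results was not tested. Summed counts of 4 Y-linked genes were 1058 to 1202 in the WT libraries and 0 or 1 in each knockout library. In comparisons with WT and in the interaction, the deletions and any other difference shared by the knockout lines cannot be told apart. The 9 stem cell markers, Pou5f1 and Nanog among them, were present in every library, with summed levels of 2635 to 4988 CPM (the count scaled to library size, with TMM factors) in WT, 6534 to 6895 for E1-KO, 6185 to 6651 for E2-KO and 5272 to 5458 for D-KO. Of 15 genes of differentiated trophoblast, 8 had no count in any library, among them Prl3d1, Tpbpa and Ctsq, and 3 passed the filter. In bulk RNA, a change in the share of cells that express a gene and a change in RNA per cell cannot be told apart.

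Per kilobase of exon, the WT levels ran from Krt8 (17.2 ± 4.49 CPM per kb, SD, n = 3) and Krt18 (11.4 ± 2.14) through Tead4 (5.50 ± 0.338), Gata3 (2.16 ± 0.496), Tfap2c (1.87 ± 0.156) and Krt19 (1.30 ± 0.425) to Tfap2a (0.835 ± 0.307) and Cdx2 (0.699 ± 0.587). Elf5 (0.0695 ± 0.0316) and Krt7 (0.0488 ± 0.0422) were lowest. Krt18 exceeded Krt8 in WT replicate 1, and Gata3 and Tfap2c overlapped. Krt19, Tfap2a and Cdx2 overlapped with one another, and so did Elf5 and Krt7. In E1-KO Tfap2c (5.61 ± 0.382 CPM per kb) stood above Krt19 (2.72 ± 0.0552) and Gata3 (1.34 ± 0.289), and Krt7 (0.279 ± 0.0801) above Elf5 (0.0781 ± 0.0702).

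**Figure D1:**
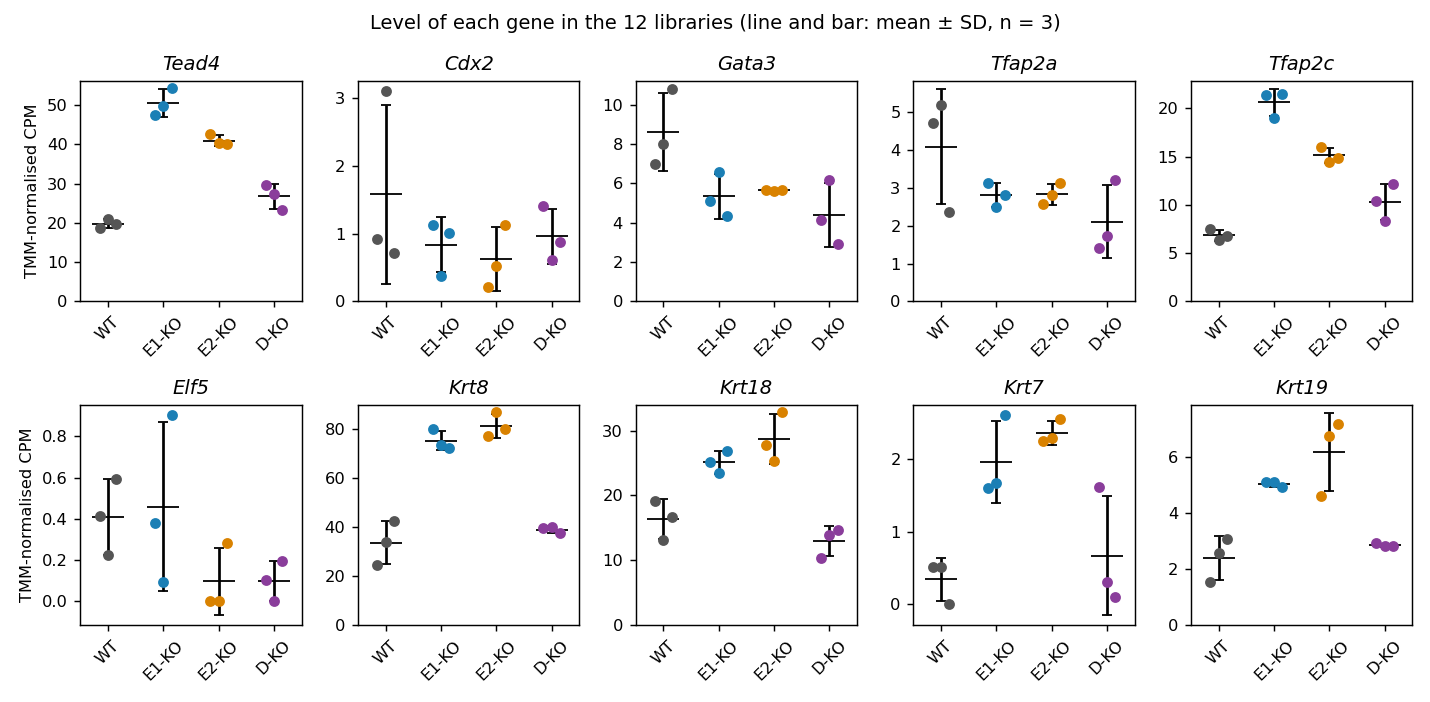
Level of each of the 10 genes in TMM-normalised CPM (vertical axis, a separate scale for each gene) in the 12 libraries, grouped by genotype; points are libraries, and the line and bar give the mean ± SD of 3 libraries. Tead4, Tfap2c and the 4 keratin genes lie higher in all 3 E1-KO and all 3 E2-KO libraries than in any WT library, and Gata3 lies lower.

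Among the transcription factors, Tead4 and Tfap2c rose in both E1-KO and E2-KO and by less in D-KO. Tead4 was at 18.6, 21.02 and 19.8 CPM in WT, 47.4, 49.7 and 54.3 for E1-KO, 42.6, 40.3 and 40.0 for E2-KO and 29.6, 27.4 and 23.3 for D-KO. The 4 genotypes did not overlap, in the order WT, D-KO, E2-KO, E1-KO. In edgeR's quasi-likelihood test with Benjamini-Hochberg adjustment over all tested genes, the log2 fold change against WT was 1.35 ± 0.12 (SE) for E1-KO (adjusted p = 2.53e-06), 1.05 ± 0.12 for E2-KO (adjusted p = 2.39e-05) and 0.43 ± 0.12 for D-KO (adjusted p = 0.0188). The D-KO call of Tead4 was lost, with a log2 fold change of 0.21, once GC content and length trends were removed from each library, and it was lost without D-KO replicate 1 (0.36) or replicate 2 (0.42).

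Tfap2c, which encodes AP-2 gamma, was at 7.496, 6.36 and 6.76 CPM in WT and 21.4, 19.03 and 21.5 for E1-KO. It was at 16.05, 14.5 and 14.9 CPM in E2-KO and 10.4, 8.38 and 12.2 for D-KO. As for Tead4, the genotypes ranked WT, D-KO, E2-KO, E1-KO with no overlap. The log2 fold changes against WT were 1.59 ± 0.16 for E1-KO (adjusted p = 7.49e-06), 1.14 ± 0.16 for E2-KO (adjusted p = 0.000159) and 0.59 ± 0.17 for D-KO (adjusted p = 0.0199). The call in D-KO was lost without D-KO replicate 1 (0.59) or replicate 3 (0.46).

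Gata3, a zinc-finger factor that acts beside Cdx2 in the trophectoderm, went the other way. Its levels were 6.98, 7.99 and 10.8 CPM in WT, 5.11, 6.59 and 4.33 for E1-KO, 5.67, 5.62 and 5.68 for E2-KO and 4.13, 6.16 and 2.92 for D-KO. Each knockout library lay below each WT library. Only the D-KO difference passed the test, with a log2 fold change of -0.96 ± 0.27 (adjusted p = 0.0186), against -0.68 (adjusted p = 0.0583) for E1-KO and -0.60 (adjusted p = 0.0893) for E2-KO. The D-KO call was lost without D-KO replicate 1 (-0.91) or replicate 3 (-0.73), and the E1-KO difference was called once the GC and length trends were removed (-0.71). The antisense gene Gm13256 shares 155 exon bases with Gata3 and held 105 counts over all libraries. The sources used here do not give the strand setting of the counting, so reads of the pair cannot be told apart.

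Cdx2 and Tfap2a did not pass the test in any comparison with WT, and Elf5 was too low to be tested. Cdx2 had 9, 42 and 6 counts in WT, or 0.924, 3.11 and 0.711 CPM. It was at 1.14, 0.371 and 1.01 CPM in E1-KO, 0.214, 0.520 and 1.14 for E2-KO and 1.41, 0.606 and 0.875 for D-KO. WT replicate 2 alone stood above every other library, and without it the log2 fold change of Cdx2 turned from -0.99 to 0.02 for E1-KO and from -0.79 to 0.23 for D-KO. In E2-KO the value was -1.38 (adjusted p = 0.121) and -0.37 without that replicate, and Cdx2 was called lower there once GC and length trends were removed (-1.76, adjusted p = 0.0370). Tfap2a was at 4.72, 5.18 and 2.37 CPM in WT, 3.12, 2.51 and 2.82 for E1-KO, 2.57, 2.81 and 3.12 for E2-KO and 1.41, 1.72 and 3.21 for D-KO. WT replicate 3 lay inside the range of the knockout libraries, and the D-KO log2 fold change of -0.97 had an adjusted p of 0.0567. Without WT replicate 3, Tfap2a was called lower in E1-KO (-0.81) and D-KO (-1.24). The D-KO difference was also called with GC and length trends removed (-0.97, adjusted p = 0.0467), with no filter on low counts (-0.96) and without D-KO replicate 3 (-1.40).

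Elf5, a factor of the trophoblast stem cell, had 12 counts in WT, 14 for E1-KO, 3 for E2-KO and 3 for D-KO, summed over 3 libraries. The log2 ratios of these totals to WT per counted read were 0.34 (exact 95% counting interval -0.88 to 1.58), -1.83 (-4.30 to 0.06) and -1.93 (-4.39 to -0.04). These intervals cover counting error only, and 2 of the 3 E2-KO libraries had no Elf5 count.

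The Krt8 and Krt18 pair was higher in both E1-KO and E2-KO and near the WT level in D-KO. Krt8 was at 24.6, 34.0 and 42.2 CPM in WT, 79.7, 73.5 and 72.1 for E1-KO, 77.0, 86.6 and 80.001 for E2-KO and 39.6, 39.8 and 37.4 for D-KO. The D-KO libraries fell inside the WT range and the others far above it. The log2 fold change against WT was 1.16 ± 0.15 for E1-KO (adjusted p = 6.46e-05), 1.27 ± 0.15 for E2-KO (adjusted p = 3.36e-05) and 0.21 ± 0.15 for D-KO (adjusted p = 0.335). The D-KO value ran from -0.12, once GC content and length trends were removed, to 0.39 over 22 alternatives, and 2 of these called it higher. A processed pseudogene of Krt8 is annotated in the genome, and how reads matching more than 1 place were counted is not given in the sources used here.

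Krt18 was at 19.2, 13.1 and 16.7 CPM in WT and 25.1, 23.4 and 26.9 for E1-KO. It was at 27.8, 25.3 and 32.9 CPM in E2-KO and 10.4, 13.9 and 14.7 for D-KO. Its rise was smaller than that of Krt8, with log2 fold changes of 0.63 ± 0.17 for E1-KO (adjusted p = 0.0129) and 0.82 ± 0.17 for E2-KO (adjusted p = 0.00271), a difference between the genes that was not tested. In D-KO it was -0.32 ± 0.18 (adjusted p = 0.206), and 1 of 22 alternatives called it lower. Once the GC content and length trends were removed, the Krt18 difference was 0.20 for E1-KO (adjusted p = 0.529) and 0.33 for E2-KO (adjusted p = 0.284), and neither was called. In E1-KO the call was also lost without E1-KO replicate 3 (0.58).

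Krt19, the type I chain that lacks most of the tail domain, followed Krt8. It was at 1.54, 2.59 and 3.08 CPM in WT, 5.11, 5.10 and 4.93 for E1-KO, 4.60, 6.77 and 7.20 for E2-KO and 2.92, 2.83 and 2.82 for D-KO. The E1-KO and E2-KO libraries all exceeded WT and D-KO, which overlapped. The log2 fold change was 1.07 ± 0.27 for E1-KO (adjusted p = 0.00701), 1.37 ± 0.26 for E2-KO (adjusted p = 0.00148) and 0.25 for D-KO, which was not called. With the GC and length trends removed, the E1-KO value was 0.70 and was not called.

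Krt7, a type II keratin of trophoblast and simple epithelia, was low throughout. Its counts were 5, 7 and 0 in WT, 17, 18 and 26 for E1-KO, 21, 22 and 27 for E2-KO and 16, 3 and 1 for D-KO. All E1-KO and E2-KO libraries lay above WT, and D-KO replicate 1 overlapped with E1-KO. The log2 fold change was 2.40 ± 0.79 for E1-KO (adjusted p = 0.0224) and 2.68 ± 0.78 for E2-KO (adjusted p = 0.0122). The E1-KO call was lost without E1-KO replicate 3 (2.16). In D-KO the value was 0.85, not called, and it turned to -0.89 without D-KO replicate 1.

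**Figure D2:**
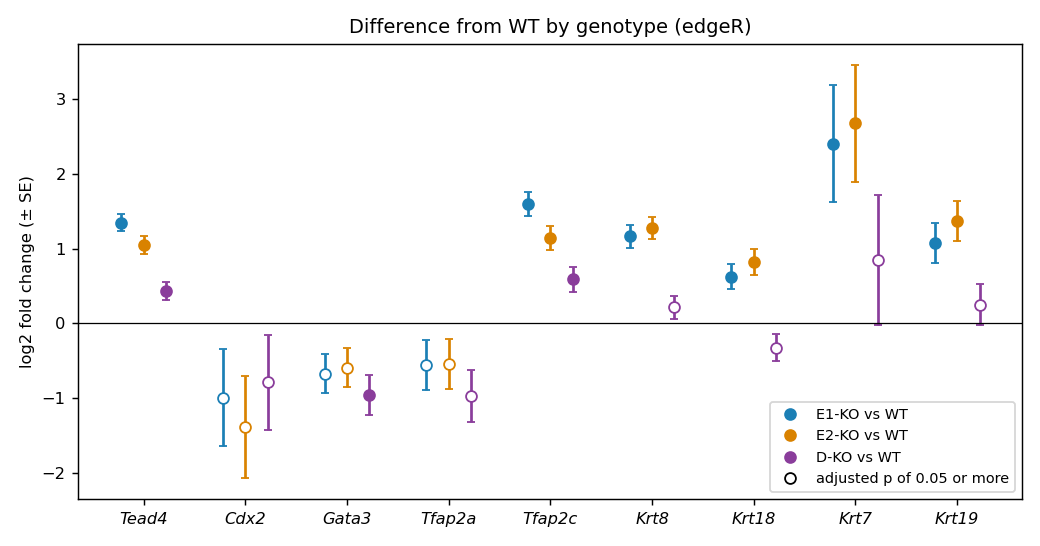
Log2 fold change against WT (vertical axis; points are edgeR estimates, bars ± SE) for the 9 tested genes in E1-KO, E2-KO and D-KO; filled points passed an adjusted p of 0.05. For 6 genes points lie above 0 in both E1-KO and E2-KO with filled points, and in D-KO filled points remain for Tead4 and Tfap2c above 0 and Gata3 below it.

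Of the 9 tested genes, 6 were called higher and none lower in E1-KO, beside 15.7% of all tested genes called higher and 18.5% called lower. The same 6 were called higher in E2-KO, for which 16.7% of all tested genes were called higher and 18.6% lower. In D-KO 2 were called higher and 1 lower, with 10.6% and 12.2% of all tested genes. The median log2 fold change of the 9 genes was 1.07 for E1-KO, 1.05 for E2-KO and 0.21 for D-KO, beside -0.01, 0.00 and -0.02 over all tested genes. By limma voom with weights per genotype, 3 genes were called higher in E1-KO (Tead4, Tfap2c and Krt8), beside 7.85% of all tested genes. Krt18 was called besides in E2-KO, with 8.24% of all tested genes called higher, and 0 of the 9 were called in D-KO, with 11.5% of all tested genes called either way. All 3 comparisons share the WT libraries. By library, 6 of the 10 genes lay wholly above WT in each of the E1-KO and E2-KO comparisons (21.0% and 21.2% of tested genes did), and Gata3 lay wholly below (20.1% and 19.7%). In D-KO Tead4 and Tfap2c lay wholly above WT (16.6%) and Gata3 and Elf5 wholly below (16.2%).

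None of the 9 tested genes was called by edgeR between E1-KO and E2-KO, where 0.596% of all tested genes were called, and 1824 genes had an unadjusted p below 0.05. In all 3 E1-KO libraries Tead4 and Tfap2c lay above all 3 E2-KO libraries, a pattern that 15.7% of tested genes showed, a share near that of the members. The log2 differences were 0.30 (adjusted p = 0.335) for Tead4 and 0.45 (adjusted p = 0.253) for Tfap2c. Both were called by limma voom with weights per genotype and by edgeR on these 2 genotypes alone, settings that called 16.8% and 21.4% of all tested genes.

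D-KO was lower than E1-KO for 5 of the 9 tested genes, with 7.52% of all tested genes called lower. The log2 differences were -0.91 for Tead4 (adjusted p = 0.000253), -1.002 for Tfap2c (adjusted p = 0.00102), -0.95 for Krt8 (adjusted p = 0.00110) and -0.95 for Krt18 (adjusted p = 0.00296). All 3 D-KO libraries lay below all E1-KO libraries for these 4 genes and Krt19, as for 27.1% of tested genes. Krt19 differed by -0.82 (adjusted p = 0.0465), a call held by 10 of 22 alternative analyses and lost without any one E1-KO or D-KO replicate or without E2-KO replicate 2 or 3 (-0.84 to -0.81). It was also lost with GC and length trends removed (-0.73, adjusted p = 0.0708), with no filter on low counts, by DESeq2 and with the replicate block (-0.83 to -0.82). Against E2-KO, 4 were lower in D-KO, with 2.64% of all tested genes: Tead4 by -0.61 (adjusted p = 0.00990), Krt8 by -1.06 (adjusted p = 0.00156), Krt18 by -1.14 (adjusted p = 0.00261) and Krt19 by -1.12 (adjusted p = 0.0255). The Tead4 call against E2-KO held in 20 of 22 alternatives, and was lost without D-KO replicate 3 (-0.52) or E2-KO replicate 1 (-0.58), and that of Krt19 held in 17 of 22, lost without any one D-KO replicate or without E2-KO replicate 2 or 3 (-1.13 to -0.99). Tfap2c (-0.55, adjusted p = 0.0640) and Krt7 (-1.83, adjusted p = 0.137) did not pass against E2-KO, although all 3 D-KO libraries of each lay below all E2-KO libraries, as did those of 6 members in all and 23.0% of tested genes.

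The design allows a test of whether the D-KO difference equals the sum of the E1-KO and E2-KO differences on the log2 scale. Had they summed, Krt8 would stand at 181 CPM in D-KO, where it was measured at 38.9 ± 1.31. For Tead4 the sum gives 104 CPM against 26.8 ± 3.18 measured, and for Tfap2c 45.4 against 10.3 ± 1.89. The measured levels were thus below the sum for these genes, and below the means of E1-KO and E2-KO. The interaction, the D-KO difference less that sum, was -1.96 ± 0.17 for Tead4 (adjusted p = 2.38e-06), -2.14 ± 0.22 for Tfap2c (adjusted p = 1.37e-05) and -2.22 ± 0.21 for Krt8 (adjusted p = 6.16e-06). It was -1.77 ± 0.24 for Krt18 (adjusted p = 0.000138), -2.19 ± 0.37 for Krt19 (adjusted p = 0.000632) and -4.23 ± 1.04 for Krt7 (adjusted p = 0.00553).

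Among the 9 tested genes, 6 were called negative in the interaction and none positive, beside 17.1% and 18.1% of all tested genes, or 35.2% either way. The 6 calls held in each of 21 alternative analyses, including the one that removed GC content and length trends. Gata3, Tfap2a and Cdx2 were not called. Negative interactions were not particular to these genes. Of the 9 stem cell markers, 7 were called negative and 1 positive, with a median of -1.09. Of the 15 primitive endoderm markers, 2 were called negative and 10 positive, with a median of 2.14. The 6 genes are those called higher than the same WT libraries in E1-KO and E2-KO. A difference from WT shared by all knockout genotypes enters the interaction with its sign reversed. Such a shared difference and a failure of the deletions to sum cannot be told apart here. The GC relation of the libraries, given above, was lowest in WT replicates 1 and 3, higher in D-KO and highest in E1-KO and E2-KO. WT replicate 2 lay between D-KO and E1-KO. Tead4, Krt8, Krt18 and Krt19 have GC contents of 56.1% to 57.1%, above the median of 49.7% of tested genes. Tfap2c has 52.7% and Krt7 53.4%, and Cdx2, with only 2 to 42 counts per library, has the highest of the members, 57.5%. With the trends removed, Krt8 differed by 0.72 for E1-KO and 0.77 for E2-KO, Tead4 by 1.00 and 0.65 and Tfap2c by 1.43 and 0.95, all still called. Krt7 was called in both (2.22 and 2.53), Krt19 in E2-KO only (0.70 and 0.93) and Krt18 in neither (0.20 and 0.33). The interactions were then -1.44 for Tead4, -1.89 for Tfap2c and -1.61 for Krt8. For Krt18, Krt19 and Krt7 they were -1.19, -1.66 and -3.95.

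**Figure D3:**
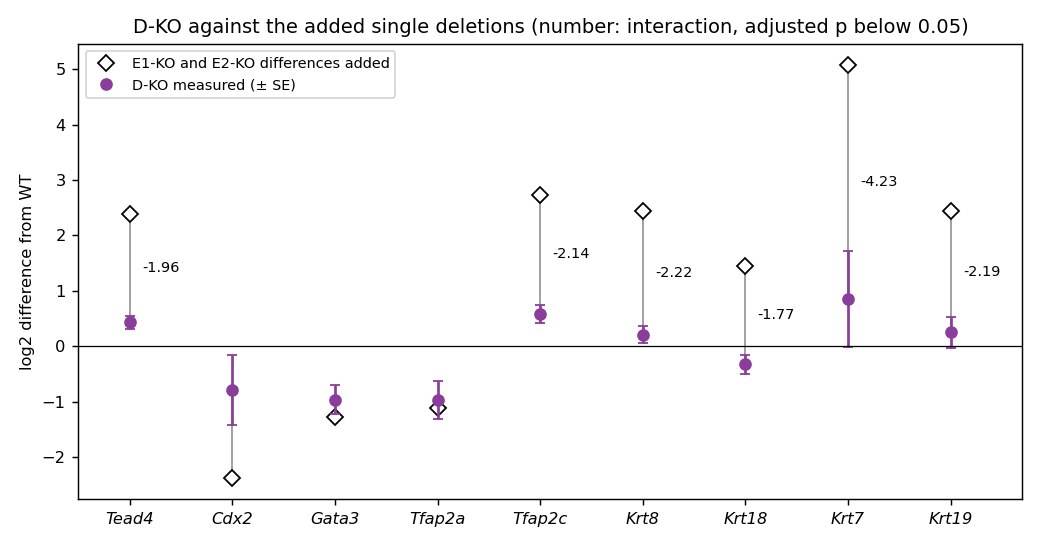
Log2 difference from WT (vertical axis) for D-KO as measured (circles, ± SE) and as the sum of the E1-KO and E2-KO differences (diamonds) for the 9 tested genes; numbers give the interaction where its adjusted p is below 0.05. The numbers stand beside 6 genes, from -1.77 for Krt18 to -4.23 for Krt7, and the circles of those genes lie below their diamonds.

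**Figure D4:**
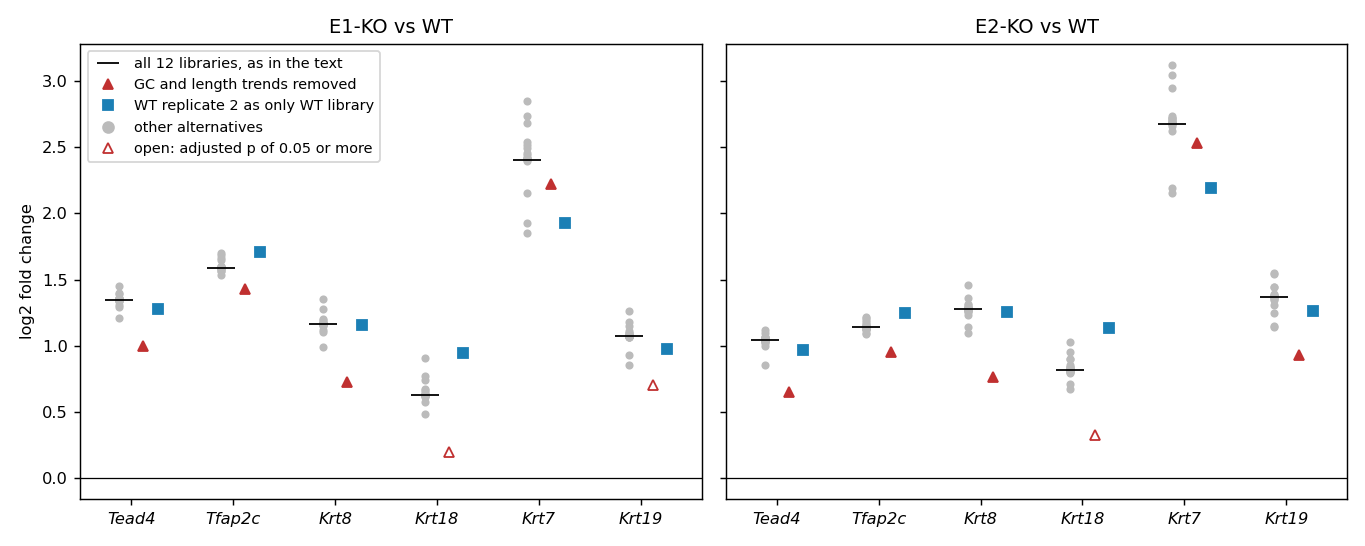
Log2 fold change (vertical axis) of the 6 genes called in E1-KO (left) and E2-KO (right) in the analysis of the text (line) and in the 22 alternatives; open symbols mark an adjusted p of 0.05 or more for the removal of GC and length trends or for WT replicate 2 as the only WT library. All points lie above 0, with Krt18 lowest once GC and length trends are removed, at 0.20 for E1-KO and 0.33 for E2-KO.

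The balance of the keratin types was read per kilobase of exon. The summed level of the 4 keratins was 26.9 to 34.9 CPM per kb in WT, 56.8 to 61.1 for E1-KO, 61.5 to 68.0 for E2-KO and 29.2 to 31.6 for D-KO. Type II over type I keratin was 0.892 to 1.66 in WT, 1.74 to 2.03 for E1-KO, 1.54 to 2.097 for E2-KO and 1.63 to 2.32 for D-KO. WT replicate 1 gave the lowest ratio. Krt8 over Krt18 was 0.942 in that library, and 1.91 and 1.85 in the other WT libraries. Krt8 made up 56.96% ± 8.74 of the 4 keratins in WT (SD, n = 3) and 65.1% ± 3.67 for D-KO, where the summed level overlapped with WT.

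Other keratins were mostly at or near 0. Of 50 further keratin symbols 6 were tested and 9 had no count in any library. Krt20, a keratin of the gut epithelium, fell, with log2 fold changes of -2.84, -2.49 and -1.60 (E1-KO, E2-KO and D-KO). Krt42 rose by 1.01 and 1.32 and Krt79 by 1.60 and 1.52 for E1-KO and E2-KO. Of 9 linkers and other intermediate filament genes, 3 rose and 2 fell in E1-KO, 2 rose and 1 fell in E2-KO and 2 rose and 2 fell in D-KO. Plec, which encodes the linker plectin, rose by 0.92 and 0.61, Lmna, a nuclear lamin, by 0.87 and 1.12, and Vim, the filament of mesenchymal cells, fell by 1.08 for E1-KO.

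The other trophoblast transcription factors did not move in 1 direction. Of 14 tested of 16 listed, 5 rose and 3 fell in E1-KO, 5 rose and 1 fell in E2-KO and 1 rose and 4 fell in D-KO, with median log2 fold changes of 0.01, 0.06 and -0.03. Sox15 rose by 0.95 and 0.87 for E1-KO and E2-KO, and Hand1, a basic helix-loop-helix factor of giant cells, by 1.70 for E2-KO. Elf3 fell, with -0.79 for E1-KO and -0.47 for D-KO. Gcm1, which drives syncytiotrophoblast fusion, fell by 1.79 for E1-KO and was at 0.82 in D-KO, not called (adjusted p = 0.0552). Eomes, a T-box factor of trophoblast stem cells, fell by 0.84 for D-KO.

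Genes of the Hippo pathway, whose effectors YAP and TAZ are partners of Tead4, were also mixed. Of 19 tested genes 5 rose and 6 fell in E1-KO, 4 rose and 8 fell in E2-KO and 1 rose and 7 fell in D-KO, with medians of -0.18, -0.23 and -0.19. Amot, a junction-bound regulator of YAP, fell, with log2 fold changes of -3.55, -2.33 and -1.67 (E1-KO, E2-KO and D-KO), and so did the TEAD target Ctgf, with -1.81, -1.71 and -0.70. Another TEAD target, Cyr61, named here after its values were seen, rose by 1.19 for E1-KO and 1.21 for E2-KO, and was at 0.11 in D-KO, not called. Amotl1 rose by 1.31 for E1-KO and Amotl2 by 0.72 for E2-KO.

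Epithelial membrane and junction genes of the trophectoderm list rose and fell in near equal number, 7 and 7 of 22 tested in E1-KO, 8 and 7 for E2-KO and 6 and 4 for D-KO, with medians of -0.04, -0.02 and 0.04. Cdh3, or P-cadherin, rose by 2.06, 2.08 and 2.19 in the same 3 comparisons. The desmosome gene Dsc2 fell, with -1.89, -1.65 and -1.52, and Dsp, which encodes the keratin-anchoring desmoplakin, with -2.26 for E2-KO. Mean Dsp levels of E1-KO (16.3 CPM) and D-KO (20.9 CPM) also lay far below that of WT (67.8 CPM). Of the 3 tested genes of differentiated trophoblast, Wnt7b rose by 2.38, 2.14 and 1.11, and Peg10 fell, with -0.86 for E1-KO and -0.59 for E2-KO. Syna, the labyrinth fusion gene, rose by 1.42 for E2-KO and 1.83 for D-KO.

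Among 7 AP-2 and GATA relatives 3 were tested, and in each comparison with WT 1 rose and 2 fell. Tfap2b had no count in any library. Gata6 (-2.12, -0.95 and -0.61 for E1-KO, E2-KO and D-KO) and Gata4 (-2.01, -1.15 and -1.42) fell, both factors of the primitive endoderm. Gata1, at 5 counts in WT, rose by 2.83, 2.95 and 2.67. Of 15 primitive endoderm markers, all tested, 10 fell and 2 rose in E1-KO, and 10 fell and 2 rose in E2-KO. In D-KO 9 of them fell and 1 rose, and the medians were -2.01, -1.15 and -0.79. Their summed level was 716 to 783 CPM in WT, 468 to 492 for E1-KO, 599 to 624 for E2-KO and 577 to 600 for D-KO. Keratins Krt8 and Krt18 are also made by endoderm, and the part of such cells in these levels was not tested. Surface ectoderm markers, of cells that make Tfap2a and keratins too, summed to 24.8 to 34.6 CPM over all libraries, with 1 of 5 tested called higher in both E1-KO and E2-KO and 2 in D-KO.

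Primitive streak and mesoderm markers, of cells that make Cdx2, had 3 of 10 tested, with none called in E1-KO or D-KO and Cdx1 called higher in E2-KO (0.67). Of 3 tested fibroblast markers 1 rose and 1 fell in both E1-KO and E2-KO and 1 fell in D-KO, and the 8 listed summed to 17.7 to 33.1 CPM in WT and 8.56 to 12.1 in the knockout libraries. Of the 9 stem cell markers 7 rose in both E1-KO and E2-KO and 6 in D-KO, and none fell. Stem cells also express Tfap2c, and the part of that rise in the Tfap2c level was not tested.

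**Figure D5:**
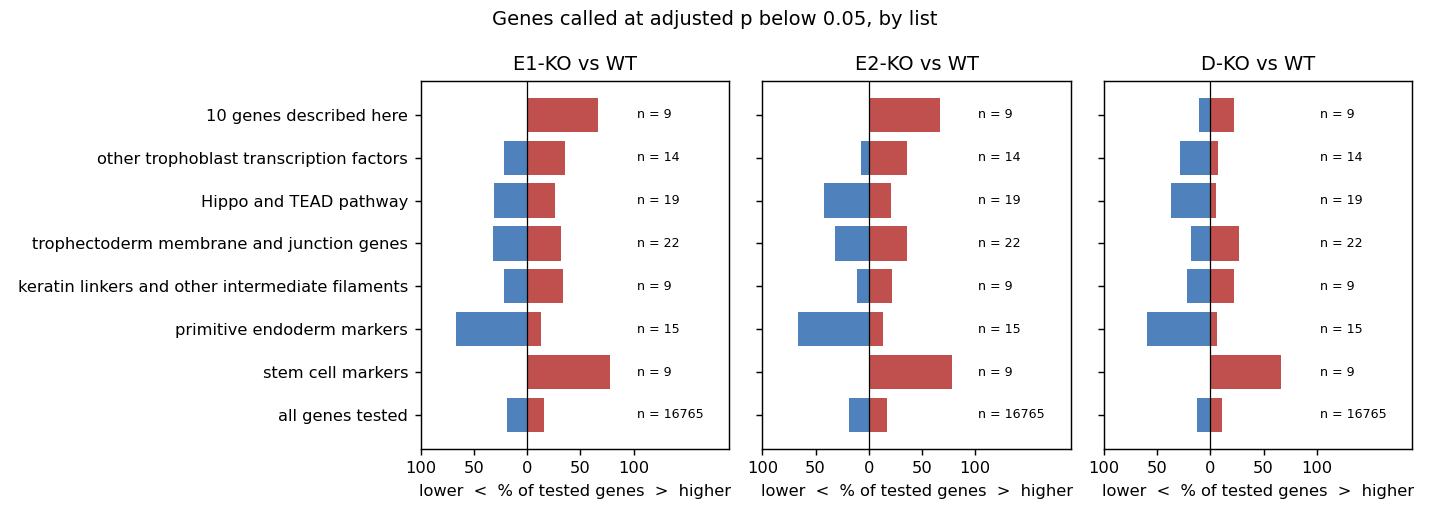
Share of tested genes called higher (right, red) or lower (left, blue) at an adjusted p below 0.05 for E1-KO, E2-KO and D-KO against WT, for the 10 genes and 6 other lists and for all tested genes; n is the number tested. The 10 genes have calls to the right in E1-KO and E2-KO (6 of 9) and none to the left, and the stem cell markers have 7 of 9 to the right.

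Genes with the most similar pattern over the 12 libraries are given as a description, since genotypes order the libraries. For Tead4 they were Acvr1b (Pearson r = 0.986 of log2 CPM), Timp3 (0.985) and Grik3 (0.980), and for Tfap2c Stag3 (0.968), Fam169b (0.966) and Sh2d4b (0.964). For Krt8 they were Tbc1d2 (0.981), Arhgef2 (0.974) and Ptges (0.974), for Krt18 Cox17 (0.963), P2rx7 (0.949) and Crtc3 (0.942), and for Krt7 Dlk2 (0.969), Zfp444 (0.945) and Sike1 (0.922). Krt19 followed Krt8 (0.970), Csmd2 (0.963) and Trim56 (0.959). Gata3 was closest to Acsl1 (0.926), Bbs9 (0.917) and Map3k13 (0.899). Among the 10 genes, Tead4 and Tfap2c had r = 0.94, and Krt8 and Krt18 0.78.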

How the data were processed

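RNA was extracted with Trizol from 12 libraries, per the labels' protocols. The authors deposited raw counts per gene symbol, made by alignment to mm10 with HISAT2 2.1.0 and counting with HTSeq 0.9.1, and name DESeq2 1.18.1 too, as the submitters' processing notes state. Which annotation and strand setting were used is not given in the sources used here. HTSeq's class of reads outside genes, 39.6% to 42.1% of all reads, stayed out of library sizes and tests. The 10 4C and ChIP samples were not analysed here. Genotypes were taken from the labels. The 10 genes and all lists were chosen with earlier results of these data known.

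The test was that of edgeR 4.0.16 (R 4.3.3): filterByExpr on genotype, TMM scaling and a robust quasi-likelihood fit of 1 mean for each genotype over all 12 libraries. A gene was called at a Benjamini-Hochberg adjusted p under 0.05, over 16765 genes. Adjusted p-values come from edgeR except where limma 3.58.1 or DESeq2 1.42.0 is given as the source. Standard errors are those of unshrunken coefficients. The spread is shared by all genotypes, while the tagwise dispersion had a median of 0.0935 for WT and 0.00615 for knockout libraries, so that errors against WT are likely too small and those between knockouts too large. GC content and length, known for 16244 tested genes, came from GENCODE M21, and their trends were removed per library in one alternative. All 10 genes were named, with up to 3 genes of each other list with the smallest adjusted p against WT, and the 3 genes of most similar pattern for each of the 10 that was called against WT. A list gene named for 1 genotype may differ from WT in the others as well. The fit was also tested on simulated data with 200 changed genes.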

Additional observations from a re-analysis of the deposited data

Results flagged for a closer look

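In 6 of the 9 tested genes the D-KO difference from WT differed from the sum of the E1-KO and E2-KO differences by edgeR's test of the interaction. The 2 differences therefore did not add up to that of D-KO on this scale. A difference from WT shared by all knockout genotypes cannot be told apart from this. The interaction was -1.96 for Tead4, -2.14 for Tfap2c, -4.23 for Krt7, -2.22 for Krt8, -1.77 for Krt18 and -2.19 for Krt19 on the log2 scale. Over all tested genes 35.2% were called in the interaction. Krt7 rests on 0 to 27 counts per library.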

How the results depend on the processing

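Of the alternatives, 22 were run for each comparison of 2 genotypes and 21 for the interaction. In all of them Tead4, Tfap2c and Krt8 were called higher in E1-KO and in E2-KO than in WT, and the 6 interactions were called. The removal of GC and length trends without WT replicates 1 and 3 was chosen after seeing the data. With limma voom 3 of the 9 genes were called in E1-KO and 0 in D-KO, against 6 and 3. With only the 2 genotypes compared, 0 were called in D-KO, beside 1438 of 15827 tested genes. With WT replicate 2 as the only WT library, the log2 fold changes in D-KO were -1.69 for Cdx2, -1.29 for Tfap2a and -0.86 for Gata3. They were 0.70 for Tfap2c, 0.35 for Tead4, 0.36 for Krt7, 0.19 for Krt8, 0.14 for Krt19 and -0.01 for Krt18. That lone library is assumed to vary like the knockout libraries, and these values rest on its own levels, such as its high Cdx2. Between E1-KO and E2-KO, 2 were called by limma voom and by the 2 genotypes alone, against 0, beside 16.8% and 21.4% of all tested genes. With WT replicate 2 as the only WT library, the log2 differences between E1-KO and E2-KO were 0.46 for Tfap2c and 0.31 for Tead4. Leaving out 1 library gave 4 to 7 called genes in E1-KO, 6 to 6 in E2-KO, 0 to 5 in D-KO, 4 to 5 for D-KO against E1-KO, 2 to 6 for D-KO against E2-KO, 0 to 0 for E1-KO against E2-KO and 6 to 6 in the interaction. The lowest counts came without D-KO replicate 1 in D-KO against WT (0) and without D-KO replicate 3 in D-KO against E2-KO (2). The same runs tested 17120 to 17266 genes and called 3965 to 8753 of them in E1-KO and 3969 to 8888 in E2-KO. In D-KO they called 2413 to 7006, for D-KO against E1-KO 1174 to 4934 and against E2-KO 227 to 2875. Between E1-KO and E2-KO they called 16 to 722, and in the interaction 4621 to 8673.

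Signs turned for Cdx2 without WT replicate 2 (0.021 in E1-KO and 0.23 in D-KO against WT), and against E1-KO in D-KO without E1-KO replicate 2 (-0.15) or D-KO replicate 1 (-0.17). In D-KO against WT they turned for Krt7 without D-KO replicate 1 (-0.89), for Krt8 (-0.12) and Krt19 (-0.029) with the trends removed, and for Krt18 with the trends removed and WT replicate 2 alone (0.033). The Tfap2a interaction turned to -0.016 with library totals, -0.08 without WT replicate 2 and -0.30 without D-KO replicate 3, and that of Gata3 to -0.011 without D-KO replicate 2. None of these values was called, and the cause was not tested. Leaving out 1 library gave Cdx2 -1.31 to 0.021 in E1-KO and -1.15 to 0.23 in D-KO, Krt7 -0.89 to 1.38 in D-KO, Cdx2 -0.17 to 0.50 for D-KO against E1-KO, and interactions of -0.30 to 0.39 for Tfap2a and -0.011 to 0.54 for Gata3.

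Scaling by library totals alone moved the median log2 fold change of all genes furthest in the interaction, from -0.01 to -0.18. The share of higher among called genes rose from 45.9% to 57.1% in E1-KO. Over all tested genes the number called in E1-KO was 5739, against 3279 by limma voom, 2552 with the 2 genotypes alone and 8753 without WT replicate 2. In E2-KO it was 5919, against 3229, 2535 and 8888, and in D-KO 3824, against 1927, 1438 and 7006, and 6238 with WT replicate 2 alone. Between D-KO and E1-KO it was 2674 and ran from 1174 to 8030 over the alternatives, between D-KO and E2-KO 751 (227 to 6157), and between E1-KO and E2-KO 100 (16 to 3457). The labels' replicate numbers do not pair the libraries: no same-numbered pair had deviations correlated above 0.1 (-0.08 to 0.08). With the number as a replicate block 5415, 5581 and 3467 genes were called in E1-KO, E2-KO and D-KO against WT, and Krt19 lost its call between D-KO and E1-KO (-0.83). Low counts limit Elf5, Krt7 and Cdx2.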
